A study of Mus musculus with 32 samples.

Results

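The histone lysine methyltransferase genes Setdb1, Ehmt1, Ehmt2 and Suv39h2, the recruitment genes Trim28 and Zfp57 and the HP1 genes Cbx1, Cbx3 and Cbx5 were examined by RNA-seq in mouse embryonic stem cells (mESCs). These 9 genes were chosen by symbol among the 24028 symbols of the expression tables, and every symbol was found once in each table. The tables came from 2 libraries, 1 of WT mESCs and 1 of mESCs labelled Eed-/-, the genotype that lacks the EED subunit of Polycomb repressive complex 2 (PRC2). Both libraries are labelled as strain TT2. In other assays of the series, samples labelled Eed-/- carry the strain label l7Rn5-3354SB. Both cultures were grown on gelatin in medium with serum and leukemia inhibiting factor, and the number of cell lines or clones behind each library is not given in the sources used here. The study asked how Polycomb relates to low DNA methylation at developmental genes. With 1 library per genotype no difference below has a replicate check, and no test between genotypes was made.

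Methylation of lysine 9 on histone H3 (H3K9) is the mark of constitutive heterochromatin and of silenced retroelements. SETDB1 methylates H3K9 at retroelements and imprinted control regions, to which it is brought by TRIM28 (KAP1) and KRAB zinc-finger proteins such as ZFP57. The EHMT1 (GLP) and EHMT2 (G9a) heterodimer writes mono- and dimethylation in euchromatin, and the SUV39H enzymes write trimethylation at pericentric repeats. Methylated H3K9 is bound by the chromodomain of the HP1 proteins, HP1β (Cbx1), HP1γ (Cbx3) and HP1α (Cbx5). PRC2, in contrast, writes the Polycomb mark on lysine 27 of the same histone.

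Of the 9 genes, Zfp57 alone was 1.5-fold or more higher in the library labelled Eed-/-, and none was 1.5-fold or more lower. Setdb1, Cbx5 and Cbx3 were the genes with the lowest values relative to WT, and Trim28, Ehmt2, Suv39h2 and Cbx1 lay closer to equal levels. Differences are given as log2(FPKM + 1) after quantile normalization, as the library labelled Eed-/- minus WT, where FPKM is a fragment number divided by the length of the transcript and by the mapped total of the library. For the 14835 genes whose normalized FPKM averaged 0.1 or more, the shares past 1.5-fold were 12.3% on the higher and 12.4% on the lower side. At 2-fold the shares were 3.80% and 3.98%, and 0 members passed that fold in either direction. The count of 1 in 9 is thus close to the share over all genes. The median difference was -0.08 over the 9 genes and 0.01 over all genes tested, and the middle 50% of the 4957 genes with a mean of at least 10 lay between -0.29 and 0.32. Without normalization, the deposited values of those 4957 genes had a median difference of -0.17, so smaller differences depend on the scaling. The 9 genes were split into 3 higher and 6 lower after quantile normalization, 1 higher and 8 lower in the deposited values, and 2 higher and 7 lower after median-ratio scaling. Trim28 and Cbx1 were the genes whose sign differed between these scalings. Over all 14835 genes tested, 7558 were higher and 7263 lower after quantile normalization. The same counts over all genes under the other scalings are not given here.

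**Figure D1:**
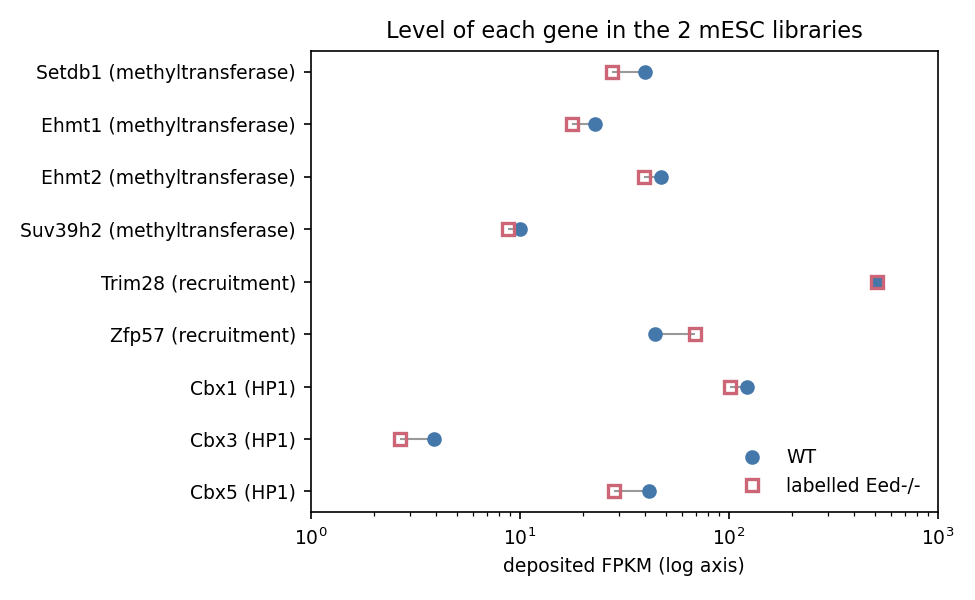
Deposited FPKM of each gene (log axis) in the WT library (filled circles) and the library labelled Eed-/- (open squares), ordered by role, with 1 library per genotype. Trim28 stands far above the other genes at 513 FPKM in both libraries, Cbx3 is the lowest, and Zfp57 is the gene whose open square lies clearly to the right.

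The depth behind these values was estimated from the files. Depths were chosen at which low FPKM values of single-transcript genes lay closest to whole multiples of 1 fragment. They were about 7220000 fragments in the WT library and 6450000 in the library labelled Eed-/-. At these depths 77.6% and 79% of such values were within 0.1 of a whole number, against 20% by chance at a depth not chosen this way. Fragment numbers below rest on these depths and on each gene's longest annotated transcript, and they are approximate for genes with several transcripts. Intervals are 95% exact binomial intervals for the ratio of fragments after median-ratio scaling (1.12 on the library labelled Eed-/-), and they cover counting error only. Counts of a PCR-amplified library without molecular identifiers are not independent molecules. The intervals thus compare these libraries and not the genotypes.

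The Eed transcript was not lower in the library labelled Eed-/-, at 63.0 FPKM in WT and 70.9 FPKM in the other library. The label of the RNA sample does not say which bases of Eed were altered, so the level of the transcript does not check the genotype. Of the other PRC2 genes, the methyltransferase gene Ezh2 was at 34.2 and 17.7 FPKM, Ezh1 at 8.49 and 6.27 and Suz12 at 67.3 and 67.5. All 10 mESC markers were above 10 FPKM in both libraries, from 25.5 to 393 FPKM in WT and from 44.4 to 373 FPKM in the other. Of these markers 7 were higher and 3 lower after normalization (5 and 5 as deposited), from -0.38 for Utf1 to 1.30 for Zfp42, with Klf4, Nanog and Dppa5a at 0.99, 0.86 and 0.80. The 8 fibroblast markers did not exceed 0.976 FPKM in WT, and the highest in the library labelled Eed-/- was Thy1 at 6.97 FPKM. Lama1, a laminin gene of primitive endoderm, was at 8.25 and 33.5 FPKM. Of 8 primitive endoderm markers 7 passed the filter, and all 7 were higher in the library labelled Eed-/- (median difference 0.54). Foxa2, which did not pass, went the other way, at 0.0731 and 0 FPKM. Dab2 was nearly level (difference 0.04). Apart from Lama1, no marker of this list exceeded 1.35 FPKM or about 28 fragments. Of 8 trophoblast markers 7 passed the filter, 2 higher and 5 lower. The lower ones include Tfap2c at 39.8 and 9.21 FPKM, Krt8 at 6.88 and 3.53 and Krt18 at 12.1 and 4.69. Eomes, 1 of the 2 higher ones, was at 0.478 and 1.93. The part of these other differences in the values of the 9 genes was not tested. In bulk RNA, fewer cells of a type and less RNA per cell cannot be told apart.

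Trim28 was the most abundant of the 9 genes and accounted for 60.7% of their summed FPKM in the WT library and 63.5% in the library labelled Eed-/-. It lies on the forward strand of chromosome 7 (chr7:13609501-13616384, NCBIM37, the mm9 assembly, as are all gene positions here) and encodes the corepressor that links KRAB zinc-finger proteins to SETDB1. Its deposited level was 513 FPKM in both libraries. Its rank among all symbols was 109 in WT and 95 in the other library. After quantile normalization the difference was 0.22, and the fragment ratio, on about 11350 and 10139 fragments, was 0.16 (interval 0.12 to 0.20). This interval left out equal levels only because the scaling lifts the library labelled Eed-/-, since the unscaled ratio was -0.00 (interval -0.04 to 0.04).

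Zfp57 lies on the forward strand of chromosome 17 (chr17:37138108-37147580) and encodes a KRAB zinc-finger protein that binds the methylated allele of imprinted control regions. It was at 44.4 FPKM in the WT library and 68.9 FPKM in the library labelled Eed-/-, 1.55 times the WT level as deposited. Its rank among all symbols was 1514 in WT and 757 in the other library. The normalized difference was 0.83, and 94.4% of the genes with a mean of at least 10 had a lower difference. The fragment ratio, from about 774 and 1074 fragments, was 0.80 (interval 0.66 to 0.93). The median difference of the tested genes on chromosome 17 was 0.04. Relative to Trim28 within a library, the level of Zfp57 was 0.0865 in the WT library and 0.134 in the library labelled Eed-/-, a change of the ratio by 0.63 on the log2 scale (counting interval 0.50 to 0.77, or -0.00 to 1.27 with the shortest transcripts as lengths).

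**Figure D2:**
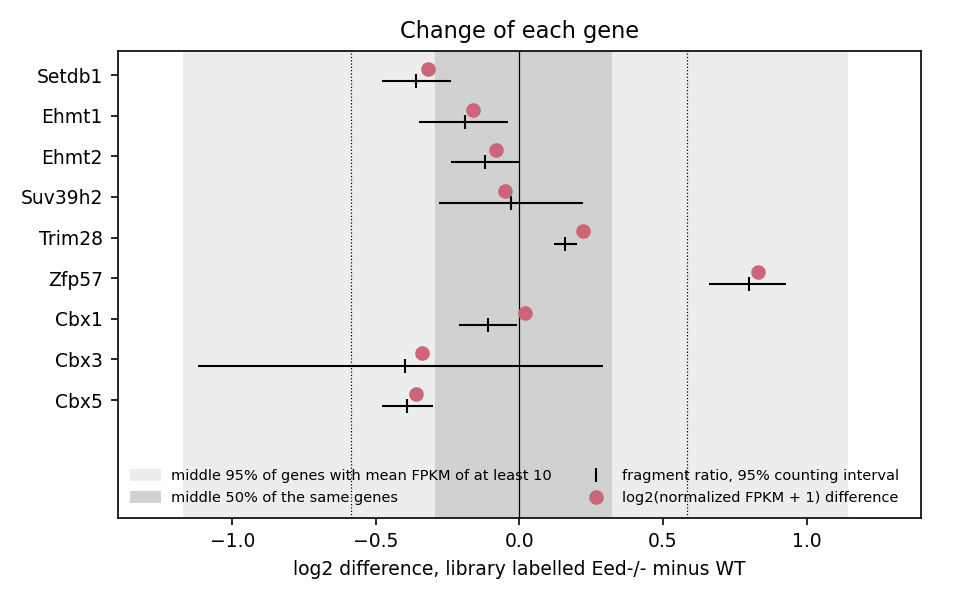
Difference of each gene between the library labelled Eed-/- and WT on the log2 scale, as log2(normalized FPKM + 1) (red points) and as the scaled fragment ratio with its 95% counting interval (black lines). Dark and light shading cover the middle 50% and 95% of the 4957 genes with a mean of at least 10, and dotted lines mark 1.5-fold. The point of Zfp57 is the only one beyond a dotted line, at 0.83.

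The 4 methyltransferase genes had lower values in the library labelled Eed-/-, by differing amounts, but the counting intervals of Ehmt2 and Suv39h2 held equal levels. With the shortest annotated transcripts as lengths, the intervals of all 4 held equal levels. Setdb1 (chr3:95127447-95161124, reverse strand) was at 39.6 FPKM in the WT library and 27.6 FPKM in the library labelled Eed-/-. The difference was -0.32 after normalization, with 23.4% of the genes of mean 10 or more below it. The fragment ratio was -0.36 (interval -0.48 to -0.24), on about 1566 and 975 fragments. With the shortest annotated transcript as length the interval was -0.77 to 0.05, so whether the difference exceeds counting error depends on the transcript length.

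Ehmt1 (chr2:24646289-24775129, reverse strand) was at 22.9 and 17.9 FPKM, a normalized difference of -0.16. Its partner Ehmt2 (chr17:35035414-35050997, forward strand) was at 47.7 and 39.4 FPKM, a difference of -0.08. Ehmt1 was below Ehmt2 in both libraries. The ratio of Ehmt1 to Ehmt2 was 0.479 in the WT library and 0.455 in the library labelled Eed-/-, a change of -0.07 with a counting interval of -0.27 to 0.12, which holds no change. The fragment ratio of Ehmt1 was -0.19 (interval -0.35 to -0.04), and that of Ehmt2 was -0.12 (interval -0.24 to 0.00).

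Suv39h2 (chr2:3373087-3392303, reverse strand) was the least abundant of the methyltransferase genes, at 10.0 and 8.75 FPKM. Its difference was -0.05, and its fragment ratio of -0.03 had an interval of -0.28 to 0.22, so no difference was detectable at this depth. Suv39h1, the second SUV39H gene, is on the X chromosome and was at 7.50 FPKM in the WT library and 9.08 FPKM in the library labelled Eed-/-. The ratio of Suv39h2 to Suv39h1 was 1.33 in WT and 0.963 in the other library, a change of -0.47 (interval -0.87 to -0.07, or -1.13 to 0.19 with the shortest transcripts), so that Suv39h2 was above Suv39h1 in WT and close to it in the other library. The tested genes of the X chromosome had a median difference of 0.46 against 0.38 for Suv39h1, and the part of that chromosome-wide shift in the ratio was not tested. None of the 9 genes lies on chromosomes 1, 8 or X, which had medians of -0.29, -0.38 and 0.46, and the medians of their own chromosomes were between -0.01 and 0.08.

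Setdb1 was also set against its partners within each library, a comparison in which the scaling between libraries cancels. Per Trim28 FPKM, Setdb1 was at 0.0773 in the WT library and 0.0539 in the library labelled Eed-/-, a change of -0.52 (interval -0.64 to -0.40). ATF7IP is the cofactor that stabilises nuclear SETDB1, and its gene was at 7.52 and 10.6 FPKM. The ratio of Setdb1 to Atf7ip was 5.27 in the WT library and 2.61 in the library labelled Eed-/-, 0.495 times the WT ratio (log2 change -1.01, interval -1.29 to -0.74). Of the 6 ratios computed this was the one that differed most between the libraries.

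The HP1 genes were led by Cbx1. Cbx1 (chr11:96650441-96669954, forward strand) was at 122 and 101 FPKM, Cbx5 (chr15:103021975-103070247, reverse strand) at 41.4 and 28.2 FPKM, and Cbx3 (chr6:51420359-51433703, forward strand) at 3.91 and 2.67 FPKM. The summed HP1 level was 167 FPKM in the WT library and 132 FPKM in the library labelled Eed-/-. Cbx1 held 72.9% of that sum in WT (counting interval 71.6 to 74.1) and 76.6% in the other library (75.2 to 77.9). Cbx5 held 24.8% (23.7 to 25.9) and 21.4% (20.2 to 22.6), and Cbx3 held 2.34% (1.69 to 2.99) and 2.03% (1.31 to 2.75). These intervals do not overlap between the libraries for Cbx1 and Cbx5. With the shortest transcript as length they do, at 67.6 to 78.1 and 70.5 to 82.6 for Cbx1 and 19.8 to 29.8 and 15.6 to 27.2 for Cbx5. The shares add up to a fixed total of which Cbx3 is a small part, so the shifts of Cbx1 and Cbx5 are not independent observations. The order of the 3 genes was the same in both libraries. The ratio of Cbx5 to Cbx1 was 0.34 and 0.28.

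The difference was -0.36 for Cbx5, with a fragment ratio of -0.39 (interval -0.48 to -0.30), and 21.6% of the genes with a mean of at least 10 were lower. For Cbx1 it was 0.02 after quantile normalization and -0.11 after median-ratio scaling, where the interval was -0.21 to -0.01. Cbx3 differed by -0.34, but on about 48.3 and 29.4 fragments its interval ran from -1.12 to 0.29, so no difference was detectable at this depth. Over the 9 genes, 2 had an interval above equal levels (Trim28 and Zfp57), 4 had one below (Setdb1, Ehmt1, Cbx1 and Cbx5), and 3 had one that held equal levels. Among the 13586 genes with such an interval, 25.0% were above and 23.2% below, 48.2% in all, so that such an interval was common among all genes. With the shortest transcript in place of the longest, which lowers every fragment number, Trim28 and Zfp57 were the 2 genes that still left out equal levels.

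**Figure D3:**
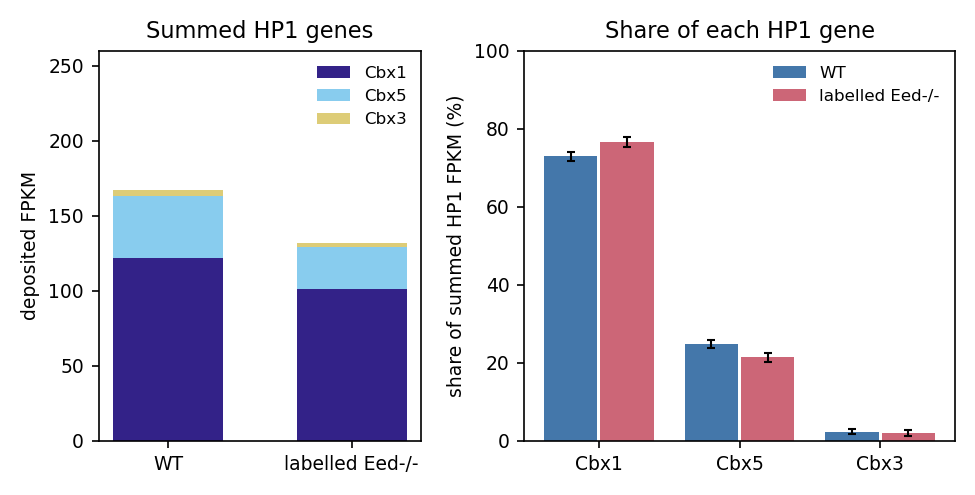
Left, deposited FPKM of Cbx1, Cbx5 and Cbx3 stacked for each library. Right, share of each gene in the summed HP1 FPKM (%), with bars of the 95% counting interval. The intervals do not cover reads that Cbx3 shares with its near-identical copies. The stack is 167 FPKM in the WT library and 132 FPKM in the library labelled Eed-/-, and the share of Cbx1 goes from 72.9% to 76.6% as that of Cbx5 goes from 24.8% to 21.4%.

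The low level of Cbx3 has to be read beside its copies in the genome. The full 552-base coding sequence of Cbx3 was found 2 more times in NCBIM37, at Gm10068 on chromosome 1 (chr1:58703532-58704083, 99.6% identical) and at Gm6984 on chromosome 14 (chr14:74354807-74355358, 99.8% identical). Neither symbol is in the tables. Of all 50-base windows of the Cbx3 coding sequence 88.3% occurred elsewhere in the genome, against 6.96% for Setdb1, 0.0534% for Ehmt2 and 0 for the remaining 6 genes. How the authors treated reads with several positions is not given in the sources used here. The part of the copies in the level of Cbx3, and so in the HP1 sum and shares, was not tested. The stretch of coding positions 345 to 444 below holds every base in which the copies differ from Cbx3. Positions are counted from 1 at the A of the start codon, sequences are 5′ to 3′ on the coding strand of NCBIM37, and in Cbx3 and its copies capitals mark the differing bases (A390G and C399T in Gm10068, A390G in Gm6984). The stretches of the copies lie at chr1:58703876-58703975 on the forward strand and chr14:74354915-74355014 on the reverse strand. In the aligned stretches of Cbx1 and Cbx5, capitals mark each base that differs from Cbx3.
Cbx3: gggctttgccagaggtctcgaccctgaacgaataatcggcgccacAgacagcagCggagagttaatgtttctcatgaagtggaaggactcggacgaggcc
Gm10068: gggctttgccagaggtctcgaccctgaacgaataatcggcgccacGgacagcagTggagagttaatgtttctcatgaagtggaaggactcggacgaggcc
Gm6984: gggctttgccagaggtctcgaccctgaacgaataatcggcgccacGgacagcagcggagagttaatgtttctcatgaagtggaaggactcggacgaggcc
Cbx1: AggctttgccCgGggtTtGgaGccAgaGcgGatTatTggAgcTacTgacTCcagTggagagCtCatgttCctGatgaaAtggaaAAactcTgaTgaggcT
Cbx5: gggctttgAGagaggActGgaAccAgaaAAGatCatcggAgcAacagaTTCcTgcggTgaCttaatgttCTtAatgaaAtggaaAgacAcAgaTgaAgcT

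In these 100 bases the copies differed from Cbx3 at 2 positions and 1 position, whereas Cbx1 differed at 27 and Cbx5 at 28. The HP1 genes themselves were therefore well separated at the level of sequence. Over aligned coding bases, Cbx1 and Cbx3 were 72.2% identical, Cbx1 and Cbx5 72.3% and Cbx3 and Cbx5 72.6%, with longest shared runs of 11, 20 and 14 bases. Ehmt1 and Ehmt2 were 65.3% identical (longest shared run 20 bases), and Suv39h1 and Suv39h2 64.7% (26 bases). Setdb1 overlaps Lass2 by 64 exonic bases on the opposite strand, and Suv39h2 overlaps Dclre1c by 147 and Gm13184 by 83. The libraries mark strand, but the strand setting of the quantification is not given in the sources used here.

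The start sites of the 9 genes were compared in RefSeq promoters of GRCm38.p6 (250 bases before to 50 bases after each annotated start), and all 9 genes matched, with 14 starts in all. CG dinucleotides, the letters CG on either strand, had a median of 7 per promoter over 32851 promoters, with quartiles of 3 and 20. At their richest start 7 of the 9 genes were at or above the upper quartile, and the exceptions were Setdb1 with 15 and Zfp57 with 9. The quartiles are over single starts, so genes with several starts are favoured in this count. The share of all genes at their richest start was not computed. The other starts of Zfp57 had 6 and 4. At the richest start Zfp57 thus had the fewest CGs of the 9 genes, near the median of all promoters. Setdb1, with the next fewest, was lower in the library labelled Eed-/-. A relation between CG content and the difference was not tested. The second start of Cbx5 had 8. TGCCGC, the core motif bound by ZFP57 when methylated, was found on either strand in 2 of the 14 starts, that of Trim28 and 1 of Ehmt2, and in 11.6% of all promoters. The 250 bases before the start are printed for Zfp57 (richest start, chr17:37002275-37002524, forward strand). They are also printed for Setdb1 (chr3:95357203-95357452, reverse strand) and Cbx5 (chr15:103239853-103240102, reverse strand), picked from the genes with lower levels. Sequences are from RefSeq GRCm38.p6, with each CG in capitals.
Zfp57: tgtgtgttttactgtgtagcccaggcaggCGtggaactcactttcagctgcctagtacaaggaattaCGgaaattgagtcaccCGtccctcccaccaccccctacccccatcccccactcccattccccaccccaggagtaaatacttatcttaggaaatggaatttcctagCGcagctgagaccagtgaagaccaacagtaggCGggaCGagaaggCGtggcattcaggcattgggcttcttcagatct
Setdb1: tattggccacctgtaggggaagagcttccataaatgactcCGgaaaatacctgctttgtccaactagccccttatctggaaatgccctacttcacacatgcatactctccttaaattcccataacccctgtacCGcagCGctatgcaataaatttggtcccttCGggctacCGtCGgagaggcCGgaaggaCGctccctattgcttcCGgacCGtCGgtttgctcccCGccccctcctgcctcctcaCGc
Cbx5: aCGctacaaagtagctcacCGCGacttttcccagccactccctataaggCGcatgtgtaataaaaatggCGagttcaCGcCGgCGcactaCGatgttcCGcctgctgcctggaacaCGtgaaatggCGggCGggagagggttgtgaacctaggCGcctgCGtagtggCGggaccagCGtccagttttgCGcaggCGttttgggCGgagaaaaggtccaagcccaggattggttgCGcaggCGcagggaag

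These stretches hold 7 CGs for Zfp57, 13 for Setdb1 and 22 for Cbx5.

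**Figure D4:**
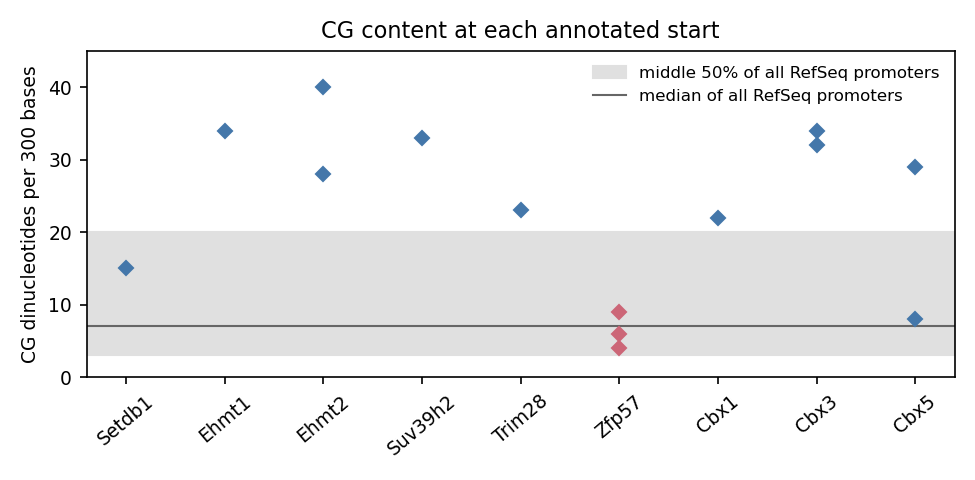
CG dinucleotides per 300 bases at each annotated RefSeq start of the 9 genes (diamonds, Zfp57 in red), with the median (line) and middle 50% (shading) of all promoters. The 3 starts of Zfp57 lie between 4 and 9, and the highest start is 1 of Ehmt2 at 40.

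The other genes of the pathway were then described by role. Of 15 further H3K9 methyltransferase genes and partners, 13 were higher and 2 lower in the library labelled Eed-/- (10 higher and 5 lower as deposited), with a median difference of 0.37. At 1.5-fold, 2 were higher and 0 lower, beside shares of 12.3% and 12.4% over all genes tested. The 2 genes were Atf7ip2 at 3.74 and 6.70 FPKM (difference 0.82) and Atf7ip (0.59). Prdm2, a PR-domain methyltransferase gene, was at 6.51 and 8.96 FPKM, and Mphosph8, the chromodomain subunit of the HUSH silencing complex, at 23.3 and 29.4 FPKM.

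Of 14 HP1 and heterochromatin partners, 5 were higher and 9 lower, with a median of -0.12 (4 and 10 as deposited, median -0.30). The lamin B receptor gene Lbr, whose product binds HP1 at the nuclear envelope, was the only one past 1.5-fold, at 106 FPKM in the WT library and 58.0 FPKM in the library labelled Eed-/- (difference -0.62). It lies on chromosome 1, where the median was -0.29. On the lower side, 12.4% of all genes tested were past 1.5-fold. Atrx, which encodes a chromatin remodeller of heterochromatin, was at 40.5 and 50.7 FPKM (0.51). Atrx lies on the X chromosome, where the median was 0.46. Its partner Daxx was at 41.5 and 28.3 FPKM (-0.35). Uhrf1, which binds methylated H3K9 and hemimethylated DNA, was at 79.2 and 91.7 FPKM (0.45).

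Of 10 H3K9 demethylase genes 9 passed the filter, 3 higher and 6 lower, with a median of -0.11. Kdm3a was the only one past 1.5-fold, at 17.8 and 25.1 FPKM (0.65), beside shares of 12.3% higher and 12.4% lower over all genes tested. Kdm1a (LSD1) was at 59.0 and 37.1 FPKM (-0.46), Kdm4a at 18.1 and 12.9 (-0.31) and Jmjd1c at 14.4 and 15.9 (0.28). Of 8 other KRAB zinc-finger genes 7 passed, 6 higher and 1 lower, with a median of 0.32 (5 and 2 as deposited, median 0.23). Zfp809, whose product silences proviral DNA through TRIM28, was at 7.97 and 16.7 FPKM (1.13), the only one past 1.5-fold or 2-fold. Over all genes tested, 12.3% were past 1.5-fold and 3.80% past 2-fold on the higher side. Zfp445, which acts with Zfp57 on imprints, was at 9.96 and 12.3 FPKM, Zfp868 at 6.37 and 7.60 and Zfp932 at 3.13 and 3.84.

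Genes known to be under H3K9-linked control ranged from -1.76 to 1.96, against -0.36 to 0.83 for the 9 genes. Of 18 imprinted genes at control regions bound by ZFP57, 17 passed, 11 higher and 6 lower, with a median of 0.16 (-0.02 as deposited), and 3 were past 1.5-fold in each direction. Plagl1 was at 0.627 FPKM in the WT library and 5.00 FPKM in the library labelled Eed-/- (1.96), and Inpp5f at 4.56 and 8.02 (0.82). Snrpn was at 132 and 32.6 FPKM (-1.76) and H19 at 68.7 and 18.2 FPKM (-1.66). The middle 95% of all genes tested ran from -1.18 to 1.17, and Plagl1, Snrpn and H19 lay outside it. Of 8 germline genes known as targets of H3K9 methylation, all low in both libraries, 4 were at least 1.5-fold higher and 1 at least 1.5-fold lower. Over all genes tested, 12.3% were past 1.5-fold on the higher and 12.4% on the lower side. The 4 include Wfdc15a, named after its values were seen, which was listed at 0 in WT and stood at 1.61 FPKM, about 3.2 fragments, in the other library. The median of the list depended on the pseudocount, at 0.47 with 1, 0.99 with 0.1 and 1.04 with 0.01. Dazl was at 0.709 and 4.08 FPKM (1.64) and Mael at 2.62 and 6.69 (1.19). Ddx4 was at 9.07 and 3.08 FPKM (-1.19), and Tex101 at 1.57 and 1.06.

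**Figure D5:**
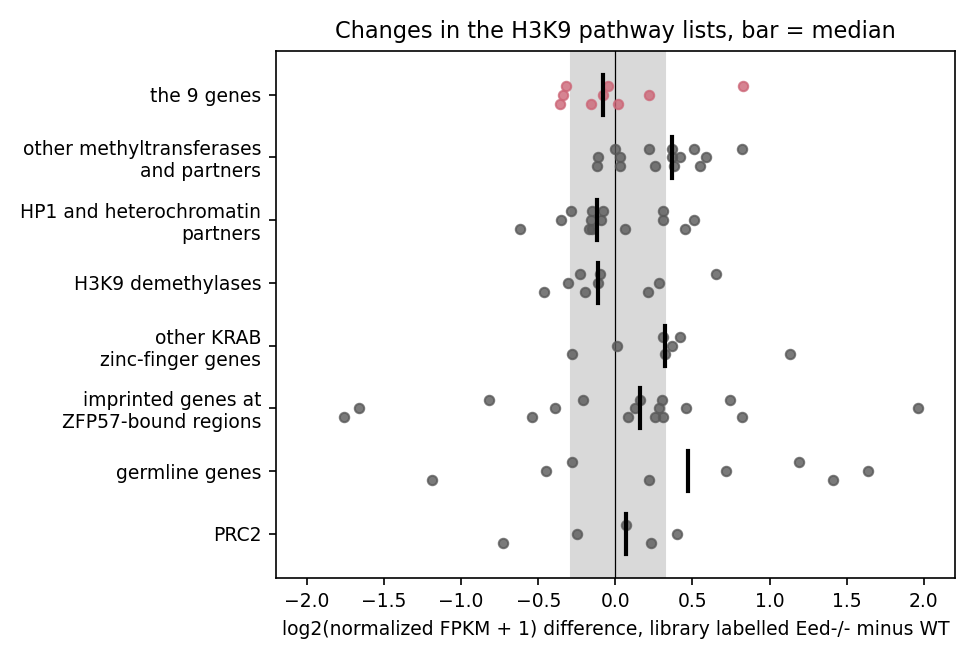
Difference on the log2(normalized FPKM + 1) scale for the 9 genes (red) and the tested genes of 7 related lists (grey), with the median of each list as a bar and the middle 50% of genes with a mean of at least 10 shaded. The 9 genes have a median of -0.08, the further methyltransferases and partners one of 0.37, and the imprinted and germline genes spread furthest, from -1.76 to 1.96.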

How the data were processed

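Per the labels, libraries that mark strand were made from ribosomal RNA-depleted total RNA of WT and Eed-/- mESCs. The authors mapped reads to mm9 with TopHat and deposited FPKM values from Cufflinks (TopHat2 2.0.11, Bowtie2 2.2.2 and Cufflinks 2.2.1 in the submitters' processing notes). The annotation and options are not given in the sources used here. The values of 268 repeated symbols were added up, libraries were quantile normalized, and differences were taken as log2(FPKM + 1) over genes with a mean of at least 0.1. Fragment numbers used the longest GENCODE transcript less 180 bases (50 at least). Intervals for HP1 shares and ratios were propagated from fragment numbers. Scripts (Python 3.11.15, scipy 1.17.1) were tested on simulated data. Copies were sought with minimap2 2.31 and with exact 50-base windows. The members and lists were chosen with earlier results of these data known. All 9 members, Eed, the genes used in ratios and at most 4 genes per other list (largest difference among those with a mean of at least 1) are named. Alternatives were the scaling, the pseudocount, the filter, the treatment of repeated symbols and the transcript length. Methylation and chromatin assays were not used here.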

Additional observations from a re-analysis of the deposited data

How the results depend on the processing

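Under every other setting tried here (FPKM as deposited, median-ratio scaling, a pseudocount of 0.1 or 0.01, the largest value of repeated symbols, no filter, or a mean of at least 1), 1 of the 9 genes was at least 1.5-fold higher and 0 were 1.5-fold lower. Their median difference was between -0.27 (as deposited) and -0.08. Relative to the median of each gene's own chromosome, or without Cbx3, which has near-identical copies, both chosen after seeing the data, the median was -0.13 and -0.06. With the shortest transcript as length, the number of genes whose counting interval left out equal levels was 2 in place of 6, because fewer fragments are assigned to each gene, and over all genes 26.2% left them out. As deposited it was again 6, with Ehmt2 in place of Trim28, and over all genes 50% left out equal levels. HP1 shares and all 6 ratios within a library moved by less than counting error after quantile normalization. Intervals of shares and ratios with the shortest transcripts, and all values of Cbx5 to Cbx1, were added after seeing the data. With those lengths the ratios of Setdb1 to Trim28 and to Atf7ip still left out no change (-0.93 to -0.11 and -1.51 to -0.52), and the other 4 did not. Depth limits Cbx3 and Suv39h2 most. No paired analysis was possible because each genotype has 1 RNA library without a replicate number. No left-out replicate could be run for the same reason.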
